A study of Mus musculus with 32 samples.

Results

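The transcriptome of untreated (UT) Lgr5-EGFP+ cells from mouse colonoids is described here by its expression levels. Its members are 8 of the 16 sums in the series, 1 for each of 8 mice, where a sum is the added counts of the 2 technical replicate libraries of a mouse and treatment. They were chosen by their treatment label alone. The other 8 sums are cells of the same mice exposed to 250 nM bethanechol (Bch), an agonist of muscarinic acetylcholine receptors, for 4 days. Colonoids, which are epithelial organoids of the colon, were grown from proximal colon crypts of Lgr5-EGFP-IRES-CreERT2 mice in Matrigel with L-WRN medium. All mice carried this allele, and the labels call the animals matched for age and sex without giving an age. Mice 1 to 4 are labelled male, with sorted Lgr5+ cells as the source and the RNeasy Plus Micro kit. Mice 7 to 10 carry no sex label, and for them the labels name colonic organoids as the source and the RNeasy Mini kit. By the series design, 4 animals were female and 4 male. Set, sex, source and kit therefore cannot be told apart in any comparison of mice 7 to 10 with mice 1 to 4.

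Lgr5 encodes a receptor for R-spondins and marks the Wnt-dependent stem cells at the base of the crypt. Their progeny divide a few more times and mature into absorptive colonocytes or into secretory cells, among them mucus-producing goblet cells, hormone-producing enteroendocrine cells and tuft cells. L-WRN medium supplies Wnt3a, R-spondin 3 and noggin, which hold colon epithelium in a proliferative state. In this allele EGFP is driven by the Lgr5 locus. It is known to be silent in many crypts, and the EGFP protein can outlast transcription of Lgr5 in daughter cells, so that a sort on EGFP can hold stem cells and their early progeny.

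The 8 sums held between 557512 unique molecular identifiers (UMIs) in mouse 3 and 3185069 in mouse 10. Most came from 3000 sorted cells, with 13114 cells for mouse 1, 2401 for mouse 9 and 2361 for mouse 3. A count of 3 UMIs, the 95% limit that a count of 0 allows, corresponds to 0.942 CPM (counts-per-million of the library total) in mouse 10 and to 5.38 CPM in mouse 3, and these limits cover counting error only. For most genes the technical replicates were closer to each other than independent counts would be. With a term for each gene and each sum, the chi-square over its degrees of freedom had a median of 0.468 over 7230 genes, where independent counts give 0.956, and 95.3% of the genes lay below that value. A minority of genes differed far more between the replicates, with 85 of 6233 well-covered genes over 2-fold apart, of which 36 encode ribosomal proteins. Without a term for each gene, the chi-square test of a sum passed its 1% limit for 3.19% to 5.28% of genes. The 2 libraries of a sum were therefore counted as 1 sample, and their UMIs cannot be treated as separate molecules. With 1 technical replicate alone the limits were 1.81 to 11.2 CPM. Mouse 3, the shallowest sum, and mouse 7, with the highest level for many variable genes, stood apart from the others, and the values that rest on them are given below.

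Genes of stem cells were examined first, with no EGFP-negative cells in the series to compare them with. Lgr5 was detected in 8 of 8 sums, with a lowest level of 12.9 CPM in mouse 10, a median of 26.4 and a highest level of 41.3 in mouse 2 (27.4 ± 10.2 CPM, SD, n = 8). It ranked at place 4287 among 21457 genes with a UMI. Ascl2, the transcription factor that acts with Lgr5 in stem cells, was far more abundant, at 197 to 412 CPM with a median of 309. Between genes these levels can be compared without regard to length, since a UMI marks a transcript and not a fragment of it. A transcript may still be counted in both technical replicates of a sum. Of 26 stem and progenitor genes, 26 had a UMI and 17 had a mean of at least 20 CPM. The highest were Sox4, a progenitor transcription factor (361 ± 78.6 CPM, SD, n = 8), Ascl2 (317 ± 79.9) and Slc12a2, an ion transporter of the lower crypt (145 ± 24.2). Smoc2, a secreted stem cell marker, was at 118 ± 14.1 CPM, and Axin2, a target of Wnt signaling, at 31.4 ± 12.2. Olfm4, a stem cell marker of the small intestine, had 0 to 2 UMIs in each sum, fewer than the 3 that a count of 0 allows.

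Most of the detected RNA was in a small number of genes. UMIs were found for 21457 genes in at least 1 sum and for 11039 in all 8. A mean of at least 20 CPM was reached by 5128 genes, which held 94.2% of the UMIs, and a mean of at least 1000 CPM by 142 genes, which held 35.4%. In each sum the 100 most abundant genes took 27.7% of the UMIs in mouse 10 to 33.8% in mouse 7.

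The 20 most abundant genes fall into a few groups. Mitochondrially encoded genes made up 4 of them, with the 16S ribosomal RNA mt-Rnr2 first at 15587 to 28545 CPM and a median of 24489. The cytochrome b gene mt-Cytb followed at 8483 to 19623 CPM (median 12212), the 12S ribosomal RNA mt-Rnr1 at 6742 to 17075 (median 12474) and mt-Nd1, a subunit of complex I, at 4517 to 6948 (median 6299). CT010467.1, a nuclear ribosomal RNA gene on chromosome 17, stood second by its mean, with a range of 6196 to 17303 CPM. Ribosomal protein genes made up 10 of the 20. Among them, Rps14 had 6504 to 9200, Rps19 had 5645 to 8826, and Rps26 was the last of the 20 with 2739 to 4334. Others were Rpl32, Rps18, Rpl41, Rplp0, Rps3 and Rps4x.

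The remaining 5 of the 20 encode proteins with other functions, and 3 of these act on peroxides or thiols. Txn1, or thioredoxin, was at 6091 to 11059 CPM with a median of 8320. Prdx1, a peroxiredoxin, was at 4062 to 5417 CPM. Gpx2, the glutathione peroxidase of the gut epithelium, was at 4161 to 5052 CPM, and its highest level was 1.21 times its lowest. Lgals4, a galectin of the intestinal epithelium, was at 5320 to 6672 CPM and Cox4i1, a subunit of cytochrome c oxidase, at 3184 to 3738. Of these 20 genes, 19 were also among the 20 most abundant genes of the Bch-treated sums.

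**Figure D1:**
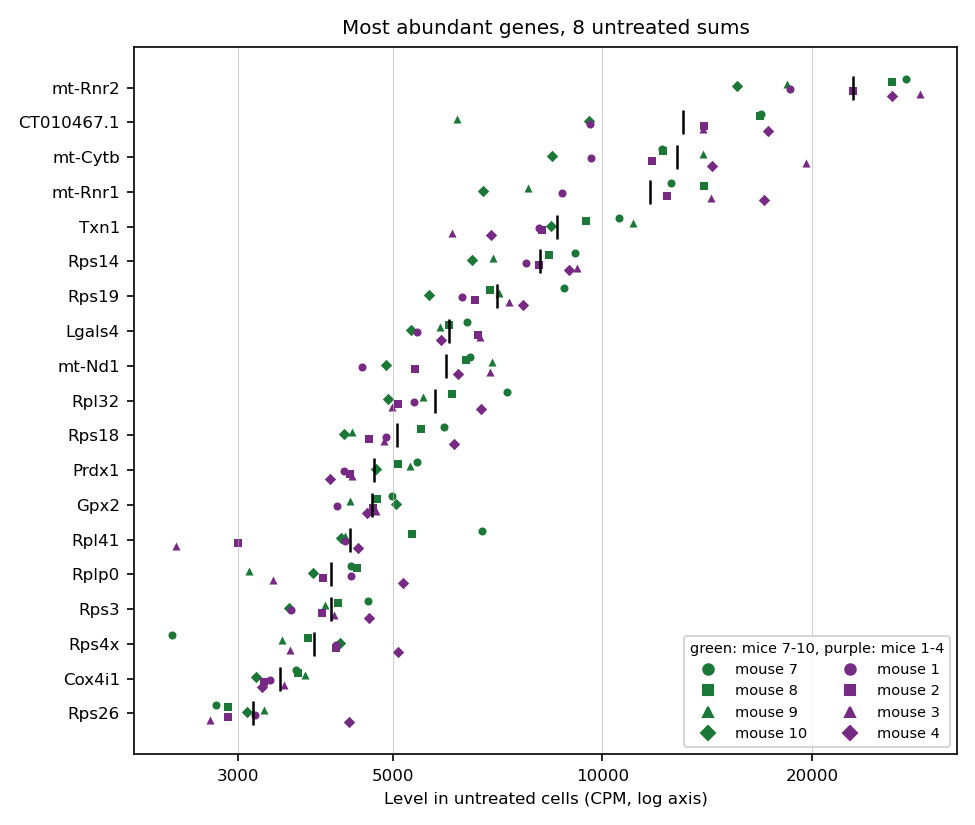
Level of 19 of the 20 most abundant genes in each of the 8 untreated sums (CPM, log axis), 1 symbol per mouse, with the mean over 8 mice as a black bar. Gpx2, Cox4i1 and Lgals4 have narrow ranges, while CT010467.1 ranges from 6196 to 17303 CPM and Rpl41 from 2447 to 6711 CPM.

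Ribosomal protein genes together took 15.2% ± 1.57 of the UMIs (SD, n = 8), from 13.8% in mouse 2 to 17.8% in mouse 4. This share differed between the technical replicates of every sum, at 10.3% to 13.6% in replicate 1 and 17.0% to 21.7% in replicate 2. Among the ribosomal protein genes named above, Rps4x was 1.43 times and Rps18 1.30 times as high in replicate 2, and Rps3 was 0.903 times. Mitochondrially encoded genes took 5.79% ± 1.22 (SD, n = 8), with the lowest share in mouse 10 (3.90%) and the highest in mouse 3 (7.44%). Nuclear protein-coding genes took 89.5% ± 1.68, pseudogenes 1.95% ± 0.311, and long noncoding and antisense genes 0.981% ± 0.130.

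Markers of epithelium were abundant, and those of other tissues were at or near 0. The 17 epithelial genes summed to 17254 to 20006 CPM in the 8 sums, with Lgals4 ahead of the keratins Krt19 (2303 ± 150 CPM, SD, n = 8) and Krt18 (2235 ± 264). Epcam, an adhesion molecule of epithelial cells, was at 1131 ± 126 CPM. Of 21 immune genes, 11 were listed in the table, and their sum was 3.87 to 10.1 CPM, with Cd68 highest at 1.94 to 7.05. The T cell genes Cd3e, Cd4 and Cd8a and the B cell gene Ms4a1 were not listed, and Cd79a, Fcer1g and S100a9 had 0 UMIs in all 8 sums. Stromal, vascular and neural genes summed to 2.42 to 14.3 CPM over the 13 of 27 that were listed, led by Acta2, Vim and Tubb3, with a mean of at most 1.98 CPM each, and Pecam1 and Elavl4 were at 0 UMIs in all 8 sums.

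Genes of intestinal and colonic identity summed to 2367 to 3086 CPM. Cdx1, a caudal-type homeobox factor of the intestine, was at 805 ± 122 CPM (SD, n = 8), the growth-related factor Klf5 at 707 ± 55.1 and the epithelial factor Elf3 at 364 ± 50.5. Small intestinal genes summed to 36.4 to 76.0 CPM, and most of that was Osr2 (45.5 ± 14.7 CPM). Fabp6, the ileal bile acid binding protein, and Sis, the brush border sucrase-isomaltase, were at 0 to 8.81 and 0 to 6.78 CPM. Of the list for Paneth cells, an antimicrobial cell type of the small intestine, Nupr1, a stress-responsive nuclear protein that is not confined to these cells, made up the largest share with 379 to 908 CPM. Ang4, an antimicrobial ribonuclease, was at 36.1 to 136 CPM and Lyz1, or lysozyme, at 37.4 to 196, while the defensin Defa22 had 0 UMIs in all 8 sums.

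Among the lineages of the colon, goblet genes had the highest sum. In bulk RNA a difference in the number of cells of a type and a difference in RNA per cell cannot be told apart, and levels of markers are not shares of cells. The 28 goblet and deep crypt secretory genes summed to 8295 ± 2029 CPM (SD, n = 8), with 5556 CPM in mouse 10 and 11325 in mouse 7 as the extremes. Spink4, a secreted peptide, Agr2, a disulfide isomerase needed for mucin production, and Tff3, the goblet trefoil factor, made up 69.1% of this sum. Spink4 alone ranged from 1395 CPM in mouse 10 to 4206 in mouse 3. Muc2, the main secreted mucin, was much lower at 42.6 to 91.2 CPM (median 63.7), and Fcgbp, which encodes a mucus protein, was at 18.2 to 80.7 CPM (median 39.9), highest in mouse 3. Zg16, a mucus lectin of mature goblet cells, had a median of 19.7 CPM with a single high value of 149 in mouse 7.

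Absorptive genes came next. The 29 listed colonocyte genes summed to 4130 ± 574 CPM (SD, n = 8), from 3295 in mouse 3 to 4983 in mouse 9. The carbonic anhydrases Car1 (788 ± 225 CPM) and Car2 (729 ± 131) and Lypd8, a secreted protein that keeps bacteria off the epithelium (620 ± 98.2), made up 51.8% of the sum. Selenbp1, a selenium-binding protein of surface colonocytes, was at 48.0 to 154 CPM with a median of 89.6. Krt20, a keratin of the mature surface, was lower, at 19.0 ± 12.4 CPM, with 49.3 CPM in mouse 9 and at most 18.2 in the other 7 mice. Slc9a3, the sodium-proton exchanger of the absorptive surface, and Ceacam20 had 0 UMIs in all 8 sums.

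Cycling genes were found at a mean of at least 20 CPM for 30 of 30 members and summed to 3463 ± 511 CPM (SD, n = 8). The chromatin protein Hmgb2 was highest (521 ± 167 CPM), followed by the thymidylate synthase Tyms (250 ± 27.3) and Birc5, which acts at the mitotic spindle (239 ± 55.5). The sum was largest in mice 10 and 1, at 4223 and 4200 CPM, and lowest in mouse 7, at 2860. By its sum the stem list, at 1570 ± 278 CPM, stood below the goblet, colonocyte and cycling lists in each of the 8 mice, and above the enteroendocrine list in each of them.

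Enteroendocrine genes summed to 352 to 1074 CPM over the 30 that were listed. The most abundant were Pyy, which encodes peptide YY (172 ± 86.0 CPM, SD, n = 8), Sct, or secretin (92.8 ± 35.9), and the granule protein Chgb (81.5 ± 28.3). The highest sum belonged to mouse 7, and the other 3 mice of its set lay at 581 to 598 CPM. Tuft genes summed to only 49.3 to 145 CPM, and 73.8% of that came from 3 genes, mainly the prostaglandin D synthase Hpgds at 21.7 to 113 CPM, which other cell types also express. Dclk1, a kinase that marks tuft cells, had 1 to 11 UMIs in each sum, and the tuft cell cytokine Il25 had 0 UMIs in all 8 sums.

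**Figure D2:**
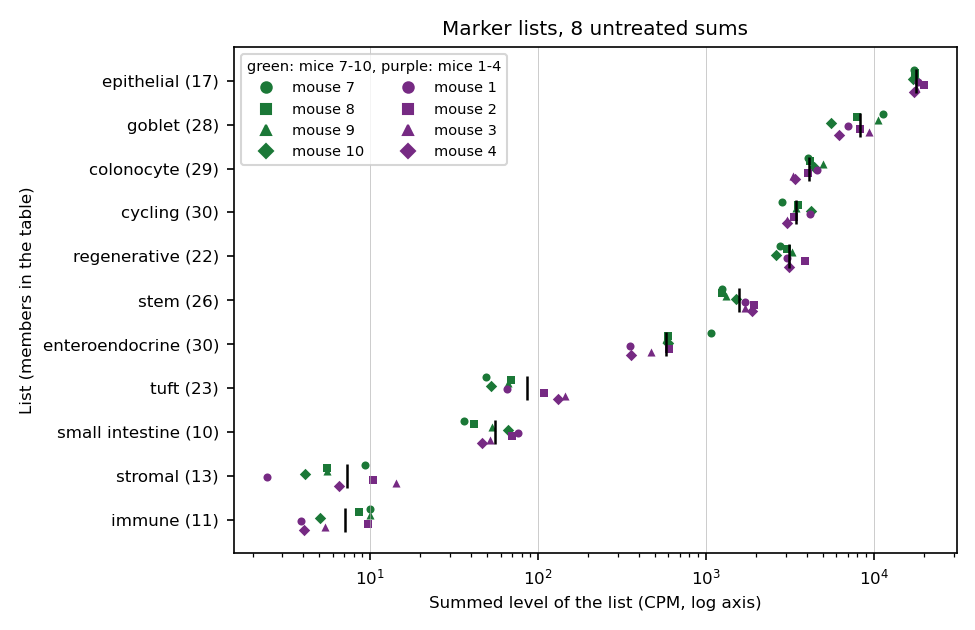
Summed level of 11 marker lists in each of the 8 untreated sums (CPM, log axis), with the number of members in the table in brackets, 1 symbol per mouse and the mean over 8 mice as a black bar. Goblet genes lie at 5556 to 11325 CPM and stem genes at 1245 to 1932 CPM, while immune and stromal genes lie between 2.42 and 14.3 CPM.

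Other programs were summed in the same way. Genes of the regenerative or fetal-like epithelium, which appear after injury and in culture, summed to 2612 to 3922 CPM, led by the keratin Krt7 (718 ± 88.6 CPM, SD, n = 8), Anxa1 (589 ± 88.9) and Ly6a, or Sca1 (428 ± 80.7). Detoxification and redox enzymes summed to 8538 to 11106 CPM, with Gpx2 followed by the alcohol dehydrogenase Adh1 (590 ± 257) and Gpx1 (504 ± 42.1). Host defence genes summed to 1161 to 1683 CPM, with Lypd8, the immunoglobulin receptor Pigr (340 ± 56.5) and the protease inhibitor Wfdc2 (293 ± 96.1) as the highest. Antigen presentation and interferon genes summed to 1200 to 1523 CPM, mostly the class I genes H2-D1 (551 ± 78.1), B2m (413 ± 23.9) and H2-K1 (203 ± 19.6). Immediate early genes, which can rise during dissociation, summed to 1700 to 2370 CPM, with Ier2 (575 ± 101), Junb (310 ± 74.2) and Jund (303 ± 28.2) on top. Imprinted genes and genes known to differ between mouse strains summed to 633 to 1086 CPM, of which 93.5% came from the glutathione transferase Gstm1 (475 ± 146), H2-K1 and Snrpn (37.0 ± 6.05), while H19, Ndn and Entpd4 had 0 UMIs in all 8 sums.

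Of the muscarinic receptors that Bch can act on, Chrm1 and Chrm3 were listed in the table, and Chrm2, Chrm4 and Chrm5 were not. Chrm3, which encodes the M3 receptor, had 0 UMIs in mice 7, 8, 9, 2 and 4, and 4 UMIs in mouse 10, 2 in mouse 1 and 1 in mouse 3. Chrm1 had 0 UMIs in 4 mice and 2 to 5 in the others. These counts are within or near what a count of 0 allows in a single mouse, so that no level is given by mouse. Over the 8 sums together, Chrm1 had 14 UMIs (0.963 CPM) and Chrm3 had 7 (0.482 CPM). A count of 0 allows 0.206 CPM there if all UMIs are independent. With the UMIs of 1 technical replicate alone this limit is higher, and Chrm3 lies nearer to it. The signaling genes below such receptors were present, with the G protein subunit Gna11 at 100 ± 19.2 CPM (SD, n = 8), the phospholipase Plcb3 at 28.8 ± 9.24 and the IP3 receptor Itpr3 at 11.2 ± 3.06. Slc18a3, the vesicular acetylcholine transporter, was at 0 UMIs in all 8 sums.

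The spread between mice was examined for the 5128 genes with a mean of at least 20 CPM, as the SD of log2 CPM over the 8 sums. Its median was 0.27. The median counting error was 0.16 if all UMIs are independent and 0.22 with the UMIs of a single technical replicate, and the SD between technical replicates had a median of 0.10. An SD of at least 0.5 was found for 307 genes (5.99%) and of at least 1 for 8 genes. At the other end, Spint2, an inhibitor of membrane serine proteases, was at 1226 to 1321 CPM in all 8 mice with an SD of 0.03. Apopt1 (93.7 to 101 CPM), the clathrin adaptor subunit Ap1m2 (179 to 196), the mitochondrial import protein Chchd4 (94.9 to 105) and the sorting protein Vps28 (294 to 331) were similarly even, with SDs of 0.04 to 0.06.

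**Figure D3:**
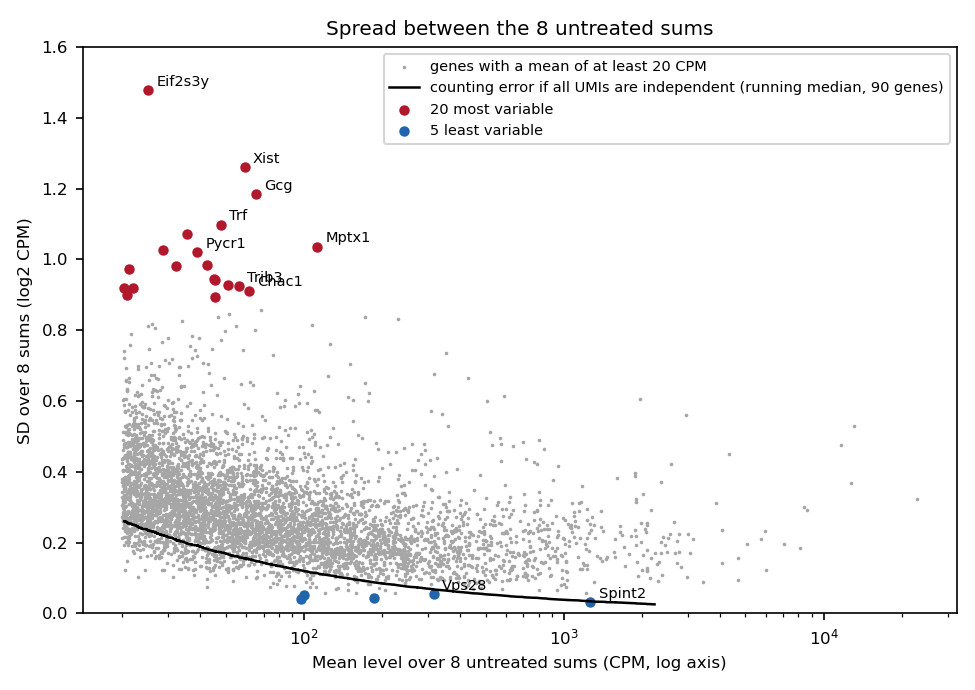
SD of log2 CPM over the 8 untreated sums against the mean level (CPM, log axis) for 5128 genes, each a grey point, with the running median of the counting error as a black line. The 20 most variable genes (red) have SDs of 0.89 to 1.48 and means of 20.3 to 112 CPM, and the 5 least variable (blue) have SDs of 0.03 to 0.06.

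The 20 genes with the largest spread were Eif2s3y, Xist, Gcg, Trf, Zg16, Mptx1, Atf5, Pycr1, Gsta1, Cck, Fam174c, mt-Tt, Snord118, Gm10250, Trib3, Dpm1, Ftsj3, Chac1, Tbl2 and Rnase1. Since the ranking chose them by their spread, the values are a description without a test. The last of them, Rnase1, had an SD of 0.89, and the next gene, Ccl6, one of 0.86. Mouse 7 had the highest level for 8 of the 20, against 8.35% of all 5128 genes, and mouse 3 had the lowest level for 4, against 18.2%, so that the latter is near the share over all genes. Mouse 7 was also the lowest of the 8 for 1385 of the 5128 genes. For 11 of the 20 the levels of mice 7 to 10 did not overlap with those of mice 1 to 4, against 9.32% of all 5128 genes, and these 11 were among genes chosen for their spread.

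One group of these genes stood out by a single high sum. Gcg, which encodes proglucagon, was at 301 CPM in mouse 7 and at 19.4 to 43.1 CPM in the other 7 mice. Mptx1, a mucosal pentraxin, was at 427 CPM in mouse 7 and at 42.1 to 90.1 in the others. Zg16 was at 149 CPM in mouse 7 and at 14.6 to 28.2 in the others. Cck, or cholecystokinin, was at 92.2 CPM in mouse 7, followed by 52.5 in mouse 2 and at most 30.5 in the other 6. Trf, or transferrin, was at 120 CPM in mouse 7, 35.7 to 68.1 in mice 8 to 10 and 8.71 to 33.6 in mice 1 to 4.

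A few other secretory and regional genes were also highest in mouse 7. They were picked out after their values were seen. The hormone genes Insl5, of distal colon L cells, and Ghrl, or ghrelin, were at 30.5 and 25.8 CPM in mouse 7 and at most 7.17 and 12.9 CPM in the others. Hoxb13, a homeobox gene known from the distal colon, was at 145 CPM in mouse 7, 42.8 to 56.2 in mice 8 to 10 and 19.9 to 37.7 in mice 1 to 4. The 23 listed genes of intestinal and colonic identity, which include Hoxb13, summed to 2383 CPM in mouse 7. That is near the low end of the 2367 to 3086 CPM of the 8 sums. Lyz1 was at 196 CPM in mouse 7 and at most 89.6 in the others. Pyy and Sct, in contrast, were highest in mouse 10 and mouse 8. The Bch-treated cells of mouse 7, which the ranking did not use, had the highest Gcg (134 CPM, against 17.1 to 87.4), Mptx1 (254), Gsta1, Cck (50.7) and Snord118 among the 8 treated sums. The other 3 of the 8 genes were highest in treated mouse 10, namely Zg16 (87.2 CPM, against 35.6 in treated mouse 7), Trf (98.4 against 61.9) and Gm10250 (76.5 against 62.8). Hoxb13 was also highest in treated mouse 10 (89.6 CPM, against 61.9 in mouse 7).

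The 4 genes that were lowest in mouse 3 rest on few UMIs. Fam174c, Dpm1, which acts in mannose transfer, and Tbl2 were at 3.59 CPM there, which is 2 UMIs each, and Gm10250, a processed pseudogene, was at 8.97 CPM. In the other 7 mice these 4 genes were at 10.5 to 71.6 CPM, and in Bch-treated mouse 3 at 20.1 to 43.2. All 4 low values are thus in the shallowest sum.

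Among the remaining variable genes, the sets did not overlap for Eif2s3y, Xist, Atf5, Pycr1, mt-Tt, Snord118, Trib3, Chac1 and Rnase1. They overlapped for Gsta1 and for Ftsj3, which was at 6.16 to 33.0 CPM in mice 7 to 10 and at 22.3 to 35.9 in mice 1 to 4. Eif2s3y, a translation initiation factor gene of the Y chromosome, was at 4.11 to 8.56 CPM in mice 7 to 10 and at 38.7 to 55.6 in mice 1 to 4. Xist, the noncoding RNA of X inactivation, was at 45.5 to 160 CPM in mice 7 to 10 and at 13.6 to 25.9 in mice 1 to 4. Neither gene was at 0 in the set where it was low. The other Y-linked genes Ddx3y, Kdm5d and Uty were at 0 to 3.14 CPM in mice 7 to 10 and at 2.42 to 16.1 in mice 1 to 4.

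Among the 100 genes of largest spread in untreated cells, 39 were also among the 100 of largest spread in the Bch-treated cells of the same mice, where 100 genes are 1.95% of those ranked. Of the top 20, the same mouse was highest in both treatments for 6, against 17.4% of the 5128 genes. The correlation of log2 CPM across genes between pairs of sums was 0.962 to 0.975 within mice 7 to 10, 0.949 to 0.973 within mice 1 to 4 and 0.932 to 0.976 between the sets. These are descriptions across genes, which are not independent replicates, and all pairs share the gene-specific levels of the cells.

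**Figure D4:**
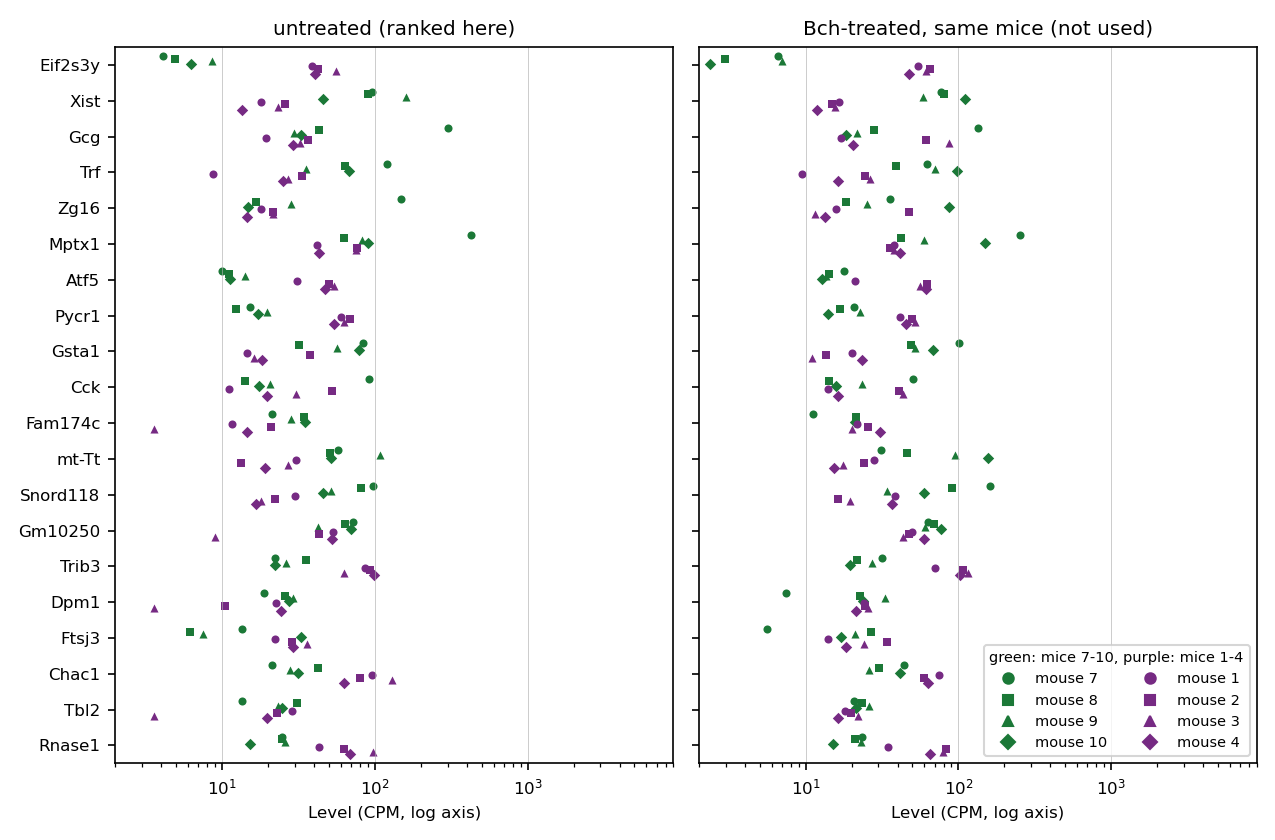
Level of the 20 most variable genes in the 8 untreated sums (left) and in the 8 Bch-treated sums of the same mice (right), in CPM on a log axis, 1 symbol per mouse. Mouse 7 lies far to the right for Gcg, Mptx1 and Zg16 in untreated cells, and the green and purple symbols are separate for Eif2s3y, Xist, Atf5, Pycr1 and Trib3 in both panels.

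The untreated sums of mice 7 to 10 were then compared with those of mice 1 to 4 in edgeR's quasi-likelihood test, with 4 mice in each set. Of 9159 genes tested, 150 passed an adjusted p of 0.05. Of these, 89 were higher in mice 7 to 10 (0.972% of the genes tested) and 61 were higher in mice 1 to 4 (0.666%). Scaling by library size alone gave 121 genes, 50 higher in mice 7 to 10 and 71 higher in mice 1 to 4, so the split between directions depended on the scaling. It also depended on the samples, with 45 against 48 genes without mouse 7, 35 against 39 without mouse 2, 37 against 43 without mouse 4 and 45 against 54 with sums thinned to equal depth. Between 74 and 210 genes passed with 1 mouse left out, the fewest without mouse 2, and 51 of the 150 passed in each of these 8 fits, 18 higher in mice 7 to 10 and 33 higher in mice 1 to 4. Without the shallow mouse 3 it was 97 genes, and without mouse 7 it was 93.

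The genes with the smallest adjusted p among those higher in mice 1 to 4 were Eif2s3y, Asns, Pycr1, Trib3 and Pck2. Asns, or asparagine synthetase (chr6:7675169-7693254 of GRCm38), was at 81.6, 139, 127 and 149 CPM in mice 7, 8, 9 and 10 and at 370, 375, 285 and 321 CPM in mice 1, 2, 3 and 4. The groups did not overlap, and the estimate for mice 7 to 10 over mice 1 to 4 was -1.38 ± 0.14 (log2, SE; adjusted p = 1.33e-07, edgeR). Pycr1, which makes proline (chr11:120635712-120643769), was at 15.3, 12.3, 19.6 and 17.3 CPM against 60.0, 69.2, 62.8 and 54.0 CPM. Every mouse of the first set was below every mouse of the other, by -1.84 on the log2 scale (standard error 0.21, adjusted p = 1e-06, edgeR). Trib3, a pseudokinase that restrains ATF4 (chr2:152337422-152344032), was at 22.3, 35.7, 26.2 and 22.3 CPM against 86.2, 93.7, 62.8 and 99.4 CPM. Pck2, the mitochondrial PEP carboxykinase (chr14:55540266-55551242), was at 58.1, 80.1, 79.1 and 82.6 CPM against 199.96, 180, 170 and 141 CPM. For both the groups were separate, with log2 fold changes of -1.66 for Trib3 and -1.13 for Pck2 (adjusted p = 2.52e-06 and 5.24e-06, edgeR). Eif2s3y, described above, had a log2 fold change of -2.76 with the same adjusted p as Asns. It passed the filter on low counts through mice 1 to 4, where it was high, so the size of its difference is a rough value.

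**Figure D5:**
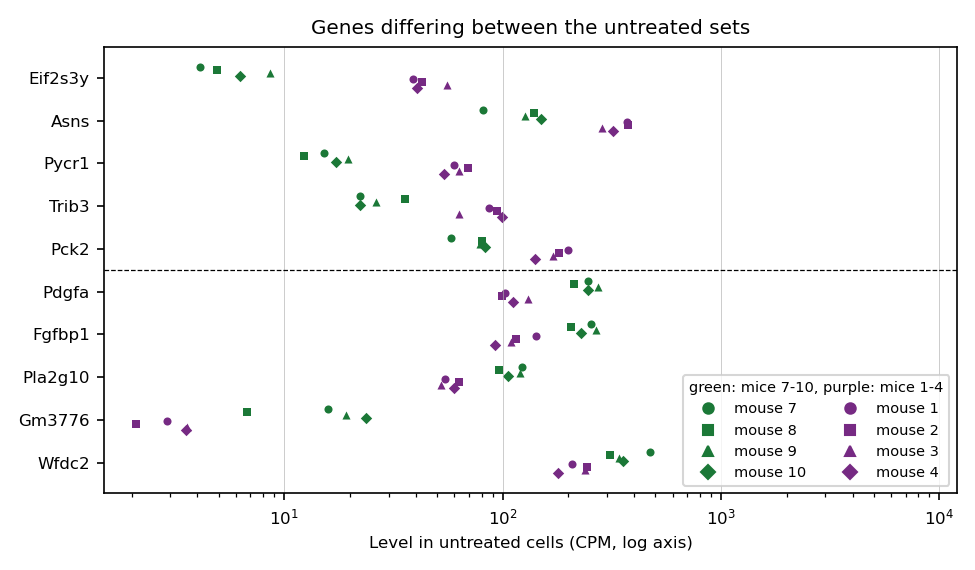
Level in the 8 untreated sums (CPM, log axis) of the 5 genes higher in mice 1 to 4 (above the dashed line) and the 5 higher in mice 7 to 10 (below it) with the smallest adjusted p, 1 symbol per mouse. Green and purple symbols do not overlap for any of the 10 genes, since non-overlap was required for the choice.

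Because several of these genes are known targets of ATF4, the amino acid response factor, their promoters were searched for the letters TGATGNAA, on both strands, in RefSeq windows of 250 bases before to 50 after the start (GRCm38.p6). Of all 32851 windows, 3.97% held them. Windows existed for 46 of the 61 genes higher in mice 1 to 4, which is 75.4% and too few for a share over those genes to be given. A match is a description of the letters and says nothing about binding. Distances are counted from the start of the RefSeq window, which can differ from the gene positions given above. By those positions the Asns match lies inside the gene, and the Trib3 match lies before its start. The stretches of 30 bases around the matches are shown for the 4 named genes and for Chac1, a glutathione-degrading enzyme. They are on the strand of the gene, with the match in capitals. Chac1 and Atf5 were added by choice from the list of variable genes, most of which were not searched. Several of the genes searched were known ATF4 targets beforehand, so their matches cannot be set against the 3.97% of all windows. Whether ATF4 acts on them here was not tested. No match was found in the windows of Eif2s3y, Atf5, Pdgfa, Fgfbp1, Pla2g10, Gm3776 and Wfdc2.
Asns, chr6:7693214-7693243, 23 bases before the start: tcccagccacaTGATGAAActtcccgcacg
Pycr1, chr11:120643833-120643862, 103 bases before the start: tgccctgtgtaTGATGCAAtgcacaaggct
Pck2, chr14:55540152-55540181, 103 bases before the start, reverse orientation: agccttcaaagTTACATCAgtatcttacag
Chac1, chr2:119351038-119351067, 193 bases before the start, reverse orientation: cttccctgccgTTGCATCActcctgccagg
Trib3, chr2:152344028-152344057, 15 bases after the start, reverse orientation: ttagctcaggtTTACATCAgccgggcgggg

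The families around these genes were counted after the result was seen, so that their counts describe it and do not test it. Of 20 cytosolic aminoacyl-tRNA synthetases, which charge tRNAs with amino acids, 20 were tested and 8 passed, all higher in mice 1 to 4 (Aars, Eprs, Gars, Lars, Nars, Rars, Sars and Tars), where 0.666% of all tested genes were. Aars and Eprs did not hold in every fit with 1 mouse left out (adjusted p up to 0.0917 and 0.0733, edgeR). The median log2 fold change of the 20 was -0.58, against -0.02 for all tested genes, and it stayed between -0.70 and -0.53 in all alternatives. Nars was at 187 to 257 CPM in mice 7 to 10 and at 380 to 560 in mice 1 to 4. Of the 16 mitochondrial synthetases tested, 0 passed, with a median of -0.04. Of 17 tested enzymes of serine, proline and one-carbon metabolism and their neighbors, 10 passed, all higher in mice 1 to 4 against the same 0.666%, among them the serine synthesis enzymes Phgdh, Psat1 and Psph and the folate enzymes Shmt2 and Mthfd2 besides Asns, Pycr1 and Pck2. Aldh18a1, another of the 10, reached an adjusted p of 0.196 with 1 mouse left out. Mthfd2 was at 60.5 to 81.9 CPM against 115 to 168 CPM, with a log2 fold change of -0.97.

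The genes with the smallest adjusted p among those higher in mice 7 to 10, with groups that did not overlap, were Pdgfa, Fgfbp1, Pla2g10, Gm3776 and Wfdc2. Pdgfa, a growth factor for mesenchymal cells (chr5:138976014-138997370), was at 246, 211, 273 and 245 CPM in mice 7, 8, 9 and 10 and at 102, 99.3, 131 and 112 CPM in mice 1, 2, 3 and 4. The groups were separate, by 1.22 ± 0.13 on the log2 scale (SE, adjusted p = 7.02e-07, edgeR). Fgfbp1, which releases fibroblast growth factors from the matrix (chr5:43978858-43981779), was at 254, 205, 266 and 227 CPM against 141, 115, 109 and 91.9 CPM. Its log2 fold change was 1.13 (standard error 0.14, adjusted p = 4.52e-06, edgeR). Pla2g10, a secreted phospholipase (chr16:13715057-13730983), was at 96.2 to 123 CPM against 52.0 to 62.9, and Wfdc2 (chr2:164562413-164568510) at 311 to 473 against 179 to 242. Pla2g10 and Wfdc2 had log2 fold changes of 1.01 and 0.86 (adjusted p = 0.000207 and 0.000488, edgeR). Gm3776, a predicted gene beside Gsta1 whose reads may be shared with that family, had 27, 11, 38 and 75 UMIs in mice 7, 8, 9 and 10 and 6, 3, 2 and 7 UMIs in mice 1, 2, 3 and 4. It passed the filter on low counts through the set where it was high, and its counts in mice 2 and 3 are within what a count of 0 allows, so that the size of its difference is not given. Of 20 tested genes of cholesterol synthesis and uptake, a family also counted after the result was seen, 4 passed, all higher in mice 7 to 10 against 0.972% of all tested genes. Acat2 and Msmo1 held with each mouse left out, and Mvk did not (adjusted p up to 0.107, edgeR). The median of the family was 0.38 and ranged from 0.32 to 0.49 in the alternatives. Msmo1 was at 255, 303, 255 and 314 CPM in mice 7 to 10 and at 204, 180, 172 and 157 CPM in mice 1 to 4.

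The marker lists differed between the sets as follows, with the 0.972% and 0.666% above as the background. In the stem list, 2 of 21 tested genes were higher in mice 1 to 4 and 0 in mice 7 to 10, with a median log2 fold change of -0.40 that stayed between -0.52 and -0.38. The summed level was 1245, 1251, 1321 and 1509 CPM in mice 7, 8, 9 and 10 and 1714, 1932, 1708 and 1880 CPM in mice 1, 2, 3 and 4. The genes that passed were Ascl2 (256 ± 54.5 against 379 ± 42.9 CPM, SD, n = 4 mice each) and Axin2 (21.5 ± 6.90 against 41.2 ± 6.11). Ascl2 reached an adjusted p of up to 0.152 and Axin2 up to 0.207 with 1 mouse left out, so neither call held in every such fit. Lgr5 itself was at 18.9 ± 4.73 against 35.9 ± 5.26 CPM and did not pass (log2 fold change -0.87, standard error 0.24, adjusted p = 0.0592, edgeR).

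In the colonocyte list, 5 of 19 tested genes were higher in mice 7 to 10 and 0 in mice 1 to 4. They were the fatty acid binding protein Fabp2 (211 ± 52.3 against 123 ± 21.0 CPM, SD, n = 4 mice each), the water channels Aqp4 (54.0 ± 14.8 against 23.4 ± 6.97) and Aqp8 (21.2 ± 12.4 against 6.64 ± 2.87), the peptide hormone Guca2b (143 ± 40.1 against 88.7 ± 16.7) and the membrane mucin Muc3 (16.2 ± 5.25 against 6.14 ± 2.58). The list's median was 0.51, with a range of 0.26 to 0.74 over the alternatives. Fabp2 and Aqp4 passed with each mouse left out, at adjusted p of up to 0.0104 and 0.0235, and Aqp8, Guca2b and Muc3 did not. In mice 1 to 4, Aqp8 and Muc3 lay near the 5.38 CPM that a count of 0 allows in mouse 3. They can have passed the filter on low counts through mice 7 to 10, where they were higher, so their differences are given as description only. Selenbp1 was at 75.7 to 154 CPM in mice 7 to 10 and at 48.0 to 131 in mice 1 to 4, with an adjusted p of 0.395.

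In the other lists 0 to 5 genes passed. Of 23 goblet genes tested, Tspan13 was higher in mice 7 to 10 but not in every fit with 1 mouse left out (adjusted p up to 0.110, edgeR), while Muc2 (adjusted p = 0.0773) and Fcgbp (adjusted p = 0.250) did not pass. None of 10 enteroendocrine genes passed, and the estimate for Gcg, 1.93 ± 1.02 (log2, SE), rests on mouse 7. The single tuft gene tested, Hpgds, was higher in mice 1 to 4 (log2 fold change -1.26, adjusted p = 0.00471, edgeR). Of 30 cycling genes, Ccnd1, or cyclin D1, was higher in mice 1 to 4 (112 ± 16.2 against 179 ± 16.7 CPM, SD, n = 4 mice each), with an adjusted p of up to 0.0695 with 1 mouse left out. Of 26 detoxification genes, 5 were higher in mice 7 to 10, namely Gsta1, Gstm1, Gstp1, Adh1 and Ces1d, of which Gstm1 held with each mouse left out. Of 15 regenerative genes, the growth factor Areg and Clu, or clusterin, were higher in mice 1 to 4 and Sprr1a, a cornified envelope protein, in mice 7 to 10, and only Areg held in each of those fits (adjusted p up to 0.0385). Hoxa10 among 18 identity genes and Wfdc2 among 11 host defence genes were higher in mice 7 to 10, of which Wfdc2 held with each mouse left out. None passed among 17 epithelial, 17 immediate early, 12 interferon and antigen presentation, 5 Paneth, 5 muscarinic signaling genes and 1 small intestinal gene.

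Along the first principal component of log2 CPM, which held 32.0% of the variance, mice 7 to 10 lay between 3.47 and 19.4 and mice 1 to 4 between -21.5 and -4.28. Mouse 7 and mouse 3 were the ends of this axis. On the second component, with 21.3%, these same mice were the highest, at 13.3 and 16.7, and mouse 1 the lowest at -12.3.

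Against the Bch-treated cells of the same mice, the untreated cells showed no difference that passed. With the mouse as a replicate block, 0 of 9366 genes (0%) passed an adjusted p of 0.05 in edgeR's quasi-likelihood test, 510 had an unadjusted p under 0.05, and DESeq2's Wald test also called 0. The stem list summed to 1570 ± 278 CPM in untreated and 1523 ± 340 in Bch-treated cells (SD, n = 8), with a median log2 fold change of -0.04 over 22 tested genes. This fit pools both sets and does not address a response in one set alone.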

How the data were processed

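RNA of sorted Lgr5-EGFP+ colonoid cells was sequenced as 3' libraries with UMIs. The deposited values are UMI counts per gene and library, which the authors made by aligning reads to the mouse genome and counting with the Drop-seq tools. The mouse build follows the methods of the study, while the labels name a human build for the same samples. Values are not normalized. Blank cells of technical replicate 2, in 1520 genes, were read as 0. The 2 technical replicates of each mouse and treatment were summed, which gave 16 sums of 32 libraries, and library totals ranged from 267146 to 2119938.

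Levels are CPM by library size. Spread is the SD of log2 CPM (prior count 2) for genes with a mean of at least 20 CPM. Tests were edgeR's quasi-likelihood test (edgeR 4.0.16, R 4.3.3, limma 3.58.1) with TMM scaling, filterByExpr and Benjamini-Hochberg adjustment at 0.05, and the script was tested on simulated data. The mouse was a block for untreated against Bch-treated cells, which come from the same mice by their numbers. Alternatives were DESeq2 1.42.0, other scalings, filters and prior counts, 1 technical replicate, thinning to 557512 UMIs, leaving out ribosomal protein and mitochondrial genes, and leaving out mice. Positions are from GENCODE for 22809 genes and RefSeq for 517.

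Genes were named by rule: the 20 most abundant, the 20 most and 5 least variable, 6 markers, the top 3 and the members at 0 of each list, and up to 5 per direction between sets whose groups did not overlap. Genes of the lists that passed the test are named besides, and other genes were chosen after their values were seen. The members and lists were chosen with earlier results of these data known. A few genes that fall under these rules are not reported here.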

Additional observations from a re-analysis of the deposited data

Results flagged for a closer look

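A sample was picked out where, within a set of 4 mice, its gap to the nearest other mouse, as a share of the set's range, exceeded Dixon's 95% critical value. This was the case for 11 of 160 sets examined, and 6 of the 11 were mouse 7. Chance picks about 1 in 20 sets, but that rate does not hold for the variable genes, which were chosen for their spread over the same sums and make up 7 of the 11. They include its high levels of Gcg (301 CPM, nearest 43.1), Mptx1 (427, nearest 90.1), Zg16 (149, nearest 28.2) and Cck (92.2, nearest 20.6). Its summed enteroendocrine list, of which Gcg and Cck are members, was also high at 1074.5 CPM (nearest 598). Pck2 in mouse 7 was low, at 58.1 CPM (nearest 79.1).

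In the same set, mt-Tt was high in mouse 9 at 109 CPM (nearest 57.5) and Rnase1 was low in mouse 10 at 15.4 CPM (nearest 24.7). Among mice 1 to 4, Rps18 was high in mouse 4 at 6132 CPM (nearest 4886), Gsta1 in mouse 2 at 37.8 CPM (nearest 18.2) and the summed regenerative list in mouse 2 at 3922 CPM (nearest 3118).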

How the results depend on the processing

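Between the untreated sets 150 genes differed, against 234 with no filter on low counts, 99 with sums thinned to equal depth, 74 to 210 with 1 mouse left out and 82 without mice 3 and 7, a choice made after seeing the data. For untreated against Bch-treated cells, 0 genes passed in the main analysis, 15 with no filter, 1 with technical replicate 1 alone and 0 with any mouse left out. The mouse numbers pair untreated and treated cells of the same mouse, and with no replicate block for this pairing the count was 0 as well, with 327 genes at an unadjusted p under 0.05. The number of genes with an SD of at least 1, which was 8, became 13 with technical replicate 1 alone, 29 with a mean of at least 10 CPM, 3 with a mean of at least 50 CPM, 3 with the SD taken within sets, 4 to 11 with 1 mouse left out, the fewest without mouse 7, and 5 without mice 3 and 7. Without ribosomal protein and mitochondrial genes in the total, Ascl2 rose to 401 CPM and Muc2 to 80.6 CPM, since the total is then smaller. The ribosomal protein share was 11.4% in technical replicate 1 and 18.6% in technical replicate 2, and the cause was not tested. With the UMIs of 1 technical replicate only, a count of 0 allows up to 11.2 CPM in the shallowest sum.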
